A study of Mus musculus with 6 samples.

Results

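Phospholamban, the calcium pump SERCA2 and the cardiac ryanodine receptor are encoded by Pln, Atp2a2 and Ryr2, and these 3 loci also hold abundant long non-coding RNAs (lncRNAs). The RNAs described are Pln mRNA, 6 lncRNAs (Gm47644 inside Pln, Gm43359, Gm43360 and Gm43361 inside Atp2a2, Gm47493 and Gm47494 inside Ryr2) and Ryr2 mRNA, 8 of 18382 genes listed. They were taken by name. Pln and the 6 lncRNAs had been picked with their levels and their I/R to Sham differences in view, so those differences are given as a description with no test. Ryr2 mRNA was taken for its locus only. Atp2a2 mRNA is not among the transcripts listed, so it was not analysed here.

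The hearts came from male mice and were perfused outside the body by the Langendorff method, in which fluid driven through the coronary arteries sustains the beat. For ischaemia and reperfusion (I/R), 3 hearts were stopped for 30 min with a cardioplegic solution and reperfused for 1 h. In 3 Sham hearts contraction was not stopped. The sources used here do not give strain or age. An isolated heart is cut off from circulating blood and from nerves, and both groups share this. Levels are in FPKM (fragments scaled by the length of the transcript and by the total), and the reads behind them were recovered (totals of 7690040 to 8896834 reads for mRNA in I/R hearts and 7233171 to 9902397 in Sham hearts, and of 2213168 to 2597795 and 2025331 to 2792592 for lncRNA). mRNA and lncRNA were scaled by these different totals, so changes and not levels are compared between the classes. Group values are means ± SD with n = 3 hearts per group, and a difference is the I/R minus the Sham mean of log2(FPKM + 1), ± SE, from limma, a linear model fitted to all genes. Nothing in the labels says how the replicates were raised or operated on, so the spread is that between these hearts.

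With each heartbeat calcium enters the cardiomyocyte and opens the ryanodine receptor, the release channel of the sarcoplasmic reticulum. SERCA2 pumps the calcium back so that the muscle relaxes. Phospholamban is a small membrane protein that inhibits the pump, and its phosphorylation by protein kinase A or by CaMKII relieves the inhibition. None of the 6 lncRNAs has a known role that is given here.

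The places of the lncRNAs inside their host genes differ. Pln lies on the plus strand of chromosome 10 (chr10:53337667-53345987, coordinates as deposited, beside 53337686-53345999 in RefSeq GRCm38.p6). Gm47644 (ENSMUSG00000112734, chr10:53337753-53345085) lies inside it on the minus strand, and its 1794 exonic bases are 24.5% of its span of 7333 bases, so it is spliced. Atp2a2 spans chr5:122453513-122502225 in RefSeq (GRCm38.p6) and is transcribed from the minus strand, which is stated from general knowledge. Gm43360 (chr5:122492022-122494908) and Gm43359 (chr5:122482800-122484999) lie inside it on the same strand. Gm43361 (chr5:122496159-122500848) lies inside it on the opposite strand, nearest to the start of the gene, from 1.4 to 6.1 kb. Ryr2 spans chr13:11553102-12106945 on the minus strand and holds Gm47493 (chr13:12047342-12052055) and Gm47494 (chr13:11818248-11821734) on the same strand. The recovered lengths of the 5 lncRNAs at Atp2a2 and Ryr2 equal their spans, so each is a single block of 2200 to 4714 bases. Which of these blocks are exonic or intronic in the host gene was not analysed here.

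**Figure D1:**
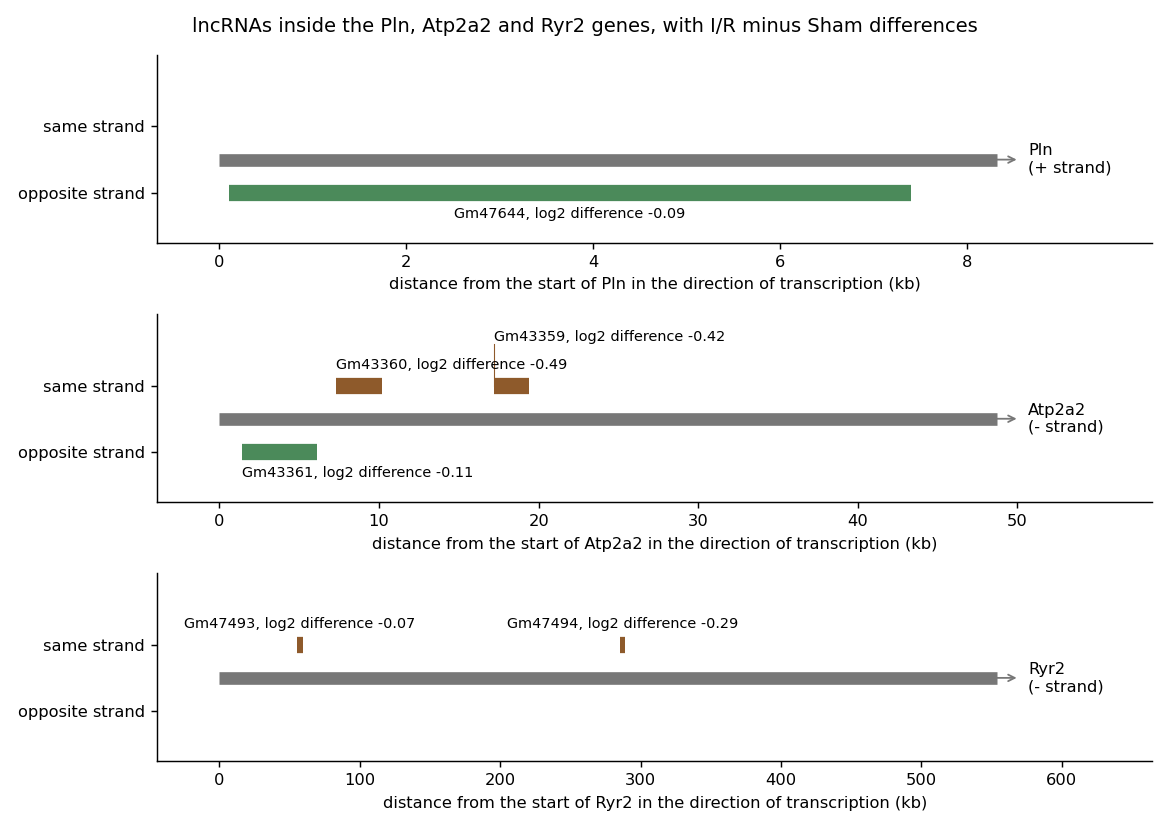
Positions of the 6 lncRNAs relative to the start of their host gene (x axis, kb in the direction of transcription), above the grey gene bar when on its strand and below it when on the opposite strand. The differences do not sort by strand: same-strand lncRNAs are at −0.42 and −0.49 at Atp2a2 and at −0.07 and −0.29 at Ryr2, and the opposite-strand lncRNAs Gm43361 and Gm47644 are at −0.11 and −0.09.

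Pln mRNA was lower in all 3 I/R hearts than in any Sham heart. It was at 84.3, 61.0 and 59.3 FPKM in I/R replicates 1, 2 and 3, against 131, 99.4 and 119 FPKM in Sham replicates 1, 2 and 3. The groups did not overlap, and the highest I/R heart lay below the lowest Sham heart. The mean was 68.2 ± 14.0 FPKM in I/R hearts and 116 ± 15.8 in Sham hearts, a difference of −0.77 ± 0.17. These values rest on 1505 reads over the I/R hearts and 2868 over the Sham hearts. Without 1 heart at a time the difference ranged from −0.93 to −0.68.

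Both listed Pln transcripts showed this difference to a like extent. The transcript of 771 bases (ENSMUST00000219491) was at 58.2 ± 12.4 FPKM in I/R hearts and 98.2 ± 14.1 in Sham hearts, a difference of −0.75 ± 0.18. The transcript of 1715 bases (ENSMUST00000163319) was at 9.95 ± 1.75 and 18.2 ± 2.62 FPKM in I/R and Sham hearts, a difference of −0.82 ± 0.18. The longer one held 26.5% to 29.9% of the gene's listed reads in I/R hearts and 26.3% to 31.4% in Sham hearts, ranges that overlap. The 2 transcripts share sequence, so the split of their reads is uncertain.

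The start regions of Pln and Ryr2, the loci whose mRNAs were measured, are shown because both mRNAs enter the comparison (250 bases before to 50 bases after the RefSeq start, GRCm38.p6, chr10:53337436-53337735 on the plus strand and chr13:12106896-12107195 on the minus strand). Capitals mark matches on either strand to the CCAAT box (CCAAT), the E-box (CANNTG), the TATA box (TATAAA) and a GATA motif (GATAAG). They also mark matches to a loosened form of the cyclic AMP response element (TGANGTCA, where N is any base).
Pln: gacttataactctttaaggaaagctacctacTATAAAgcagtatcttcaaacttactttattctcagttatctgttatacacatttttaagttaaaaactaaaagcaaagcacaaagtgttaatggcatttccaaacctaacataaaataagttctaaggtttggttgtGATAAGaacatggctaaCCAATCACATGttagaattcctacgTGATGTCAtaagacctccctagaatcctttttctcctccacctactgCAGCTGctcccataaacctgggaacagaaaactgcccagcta
Ryr2: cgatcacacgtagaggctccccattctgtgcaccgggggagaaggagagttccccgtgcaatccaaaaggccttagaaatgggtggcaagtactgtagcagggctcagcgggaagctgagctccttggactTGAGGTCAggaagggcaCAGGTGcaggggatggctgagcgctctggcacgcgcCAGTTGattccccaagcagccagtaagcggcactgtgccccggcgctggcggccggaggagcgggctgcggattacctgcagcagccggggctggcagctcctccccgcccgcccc
The Pln region is AT-rich, with 36.0% G and C against 65.3% in that of Ryr2 and a median of 52.7% over 32851 mouse start regions of this length. Counted from the start of the gene, it holds 1 GATA motif (from −81), 1 CCAAT box (from −64) and 1 TATA box (from −219). It also holds 2 E-boxes (from −59, directly after the CCAAT box, and from 9) and 1 match to the loosened cyclic AMP pattern (TGATGTCA, from −39). Of all start regions, 7.4% hold the GATA motif, 37.4% the CCAAT box, 8.8% the loosened cyclic AMP pattern, 13.6% the TATA box and 72.3% the E-box. The Ryr2 region holds 1 match to the loosened cyclic AMP pattern (TGAGGTCA, from −119) and 2 E-boxes (from −102 and −66). These are matches of letters and were not tested as binding sites.

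Gm47644, on the opposite strand inside Pln, did not show the difference of the mRNA. It was at 28400, 24506 and 26555 FPKM in I/R replicates 1, 2 and 3, against 29341, 26339 and 28799 FPKM in Sham replicates 1, 2 and 3. The groups overlapped, with a mean of 26487 ± 1948 FPKM in I/R hearts and 28159.6 ± 1599 in Sham hearts (−0.09 ± 0.09). It ranked 5th of 9413 lncRNAs by mean FPKM and held 4.40% to 5.26% of the lncRNA total of a heart.

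Set against Gm47644 within each heart, which needs no scaling between hearts, Pln was lower in I/R. The ratio was not tested because both RNAs were picked on their values. There were 5.19, 4.39 and 3.74 Pln reads per 1000 Gm47644 reads in I/R replicates 1, 2 and 3, against 8.14, 6.98 and 7.44 in Sham replicates 1, 2 and 3. The log2 ratio differed by −0.77 ± 0.15, with no overlap. The 2 RNAs belong to different classes, and with FPKM, which divides each by the total of its class, the ratio differed by −0.69. The genes overlap on opposite strands and the sources used here do not say whether strand was used in counting, so reads of the one may be counted to the other. Over the I/R hearts 338968 reads were assigned to Gm47644 and 1505 to Pln, and the part that this division has in the difference was not tested.

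At Atp2a2 the 2 lncRNAs on the strand of the gene were lower in I/R hearts and the groups did not overlap. Gm43359 was at 1104, 1179 and 1327 FPKM in I/R replicates 1, 2 and 3, against 1767, 1618 and 1461 FPKM in Sham replicates 1, 2 and 3. Its mean was 1203 ± 113 FPKM in I/R hearts and 1616 ± 153 in Sham hearts (−0.42 ± 0.11). The gap was narrow, since I/R replicate 3 and Sham replicate 3 lay next to each other. Gm43360 was at 695, 656 and 715 FPKM in I/R replicates 1, 2 and 3, against 1097, 921 and 896 FPKM in Sham replicates 1, 2 and 3. Its mean was 689 ± 30.1 FPKM in I/R hearts and 971 ± 109 in Sham hearts (−0.49 ± 0.10), and its I/R hearts lay close together. The 2 RNAs went together, with 707 to 826 Gm43360 reads per 1000 Gm43359 reads in I/R hearts and 747 to 814 in Sham hearts.

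Gm43361, on the opposite strand of Atp2a2, was more abundant and differed less. It was at 3848, 3697 and 3724 FPKM in I/R replicates 1, 2 and 3, against 4224, 3845 and 4068 FPKM in Sham replicates 1, 2 and 3. The groups overlapped by a few FPKM, with I/R replicate 1 just above Sham replicate 2 (mean 3756 ± 80.8 in I/R hearts and 4046 ± 190 in Sham hearts, −0.11 ± 0.07). Per 1000 Gm43361 reads there were 135, 150 and 167 Gm43359 reads in I/R replicates 1, 2 and 3, against 196, 197 and 169 in Sham replicates 1, 2 and 3. The gap between the groups was again narrow, at the replicates 3. Per 1000 Gm43361 reads there were 109 to 118 Gm43360 reads in I/R hearts and 136 to 160 in Sham hearts, a difference of −0.38 ± 0.08 in log2 ratio. These 3 RNAs belong to 1 class and to 1 locus, so their ratios do not depend on library totals, and they were not tested because the RNAs were picked on their values. Reads of Atp2a2 mRNA that fall in these blocks could not be told apart from those of the lncRNAs.

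**Figure D2:**
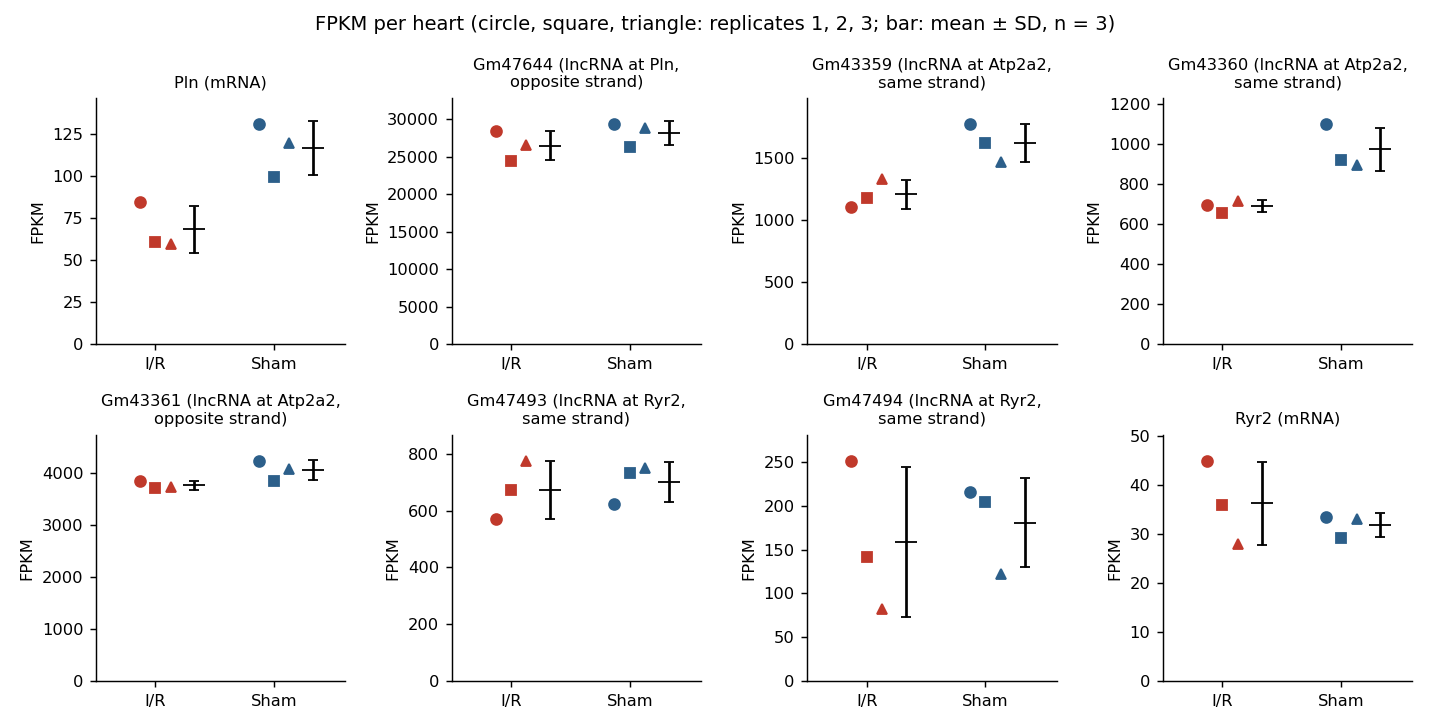
FPKM of the 8 RNAs in each heart (y axis from 0), with I/R hearts in red left of Sham hearts in blue, symbols for replicates, and bars for mean ± SD (n = 3). Pln, Gm43359 and Gm43360 have no I/R heart at or above a Sham heart, whereas the other RNAs overlap.

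In all, 3 of the 7 RNAs picked on their values (Pln, Gm43359 and Gm43360) had every I/R heart below every Sham heart. Over all genes tested this was so for 5.12% of 5041 protein-coding genes and 7.61% of 7073 lncRNAs, and for 6.88% of the 727 lncRNAs with a mean of at least 100 FPKM. All 7 passed the filter on low values (a mean of at least 0.5 FPKM) and all 7 had a lower mean in I/R hearts. Because they were picked on this contrast, nothing is read from these counts.

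At Ryr2 neither lncRNA separated the groups. Gm47493 was at 571, 671 and 774 FPKM in I/R replicates 1, 2 and 3, against 622, 732 and 750 FPKM in Sham replicates 1, 2 and 3. Each group held a low and a high heart over the same range (mean 672 ± 102 in I/R hearts and 701 ± 69.3 in Sham hearts, −0.07 ± 0.13). Gm47494 was at 251, 142 and 82.3 FPKM in I/R replicates 1, 2 and 3, against 216, 205 and 122 FPKM in Sham replicates 1, 2 and 3. It was the least even of the 6 lncRNAs, with a coefficient of variation of 54.1% among I/R hearts and 28.3% among Sham hearts, and its difference was −0.29 ± 0.41. That difference was −0.69 without I/R replicate 1, −0.55 without Sham replicate 3, −0.18 without Sham replicate 2, −0.14 without Sham replicate 1, but 0.10 when I/R replicate 3 was left out, so its sign rests on I/R replicate 3. The difference of Gm47493 was 0.045 without I/R replicate 1. Gm47493 was lowest in the hearts where Gm47494 was highest, replicate 1 of both groups.

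Ryr2 mRNA, summed over its 3 listed transcripts, did not differ past the threshold. It was at 44.9, 36.0 and 28.1 FPKM in I/R replicates 1, 2 and 3, against 33.6, 29.1 and 33.2 FPKM in Sham replicates 1, 2 and 3. The groups overlapped (mean 36.3 ± 8.45 in I/R hearts and 32.0 ± 2.46 in Sham hearts, 0.16 ± 0.18; limma, adjusted p = 0.876 over all genes). Without I/R replicate 1, its highest heart, the difference of Ryr2 mRNA was −0.0054. A p above the threshold does not show that the levels are alike.

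The 3 Ryr2 transcripts did not go together. The longest, of 16813 bases (ENSMUST00000170156), was at 2.87, 1.83 and 1.34 FPKM in I/R replicates 1, 2 and 3, against 3.68, 2.94 and 4.04 FPKM in Sham replicates 1, 2 and 3. Every I/R heart lay below every Sham heart, as for 5.50% of protein-coding transcripts tested, and the difference of −0.62 ± 0.25 did not pass the adjustment over all transcripts (limma, adjusted p = 0.563). At this low level the size depends on the scale, with −0.29 at a pseudocount of 5 and −0.90 in limma voom. The transcript of 4924 bases (ENSMUST00000220597) was at 25.3 ± 8.54 FPKM in I/R hearts and 20.8 ± 3.77 in Sham hearts, and that of 3086 bases (ENSMUST00000221527) at 8.97 ± 2.13 and 7.63 ± 4.01 FPKM in I/R and Sham hearts. Both overlapped between the groups (0.24 ± 0.25 and 0.29 ± 0.36; limma, adjusted p = 0.854 and 0.882). Per length the longest transcript was thus the least abundant of the 3 in every group mean.

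As a share of the Ryr2 reads of a heart, the longest transcript separated the groups with little spread. It held 19.9%, 17.2% and 16.3% of them in I/R replicates 1, 2 and 3, against 33.05%, 29.8% and 33.3% in Sham replicates 1, 2 and 3. The transcript of 4924 bases held 70.9%, 63.1% and 65.1% in I/R replicates 1, 2 and 3, against 47.2%, 57.5% and 60.5% in Sham replicates 1, 2 and 3. The third transcript held 9.18% to 19.6% in I/R hearts and 6.17% to 19.8% in Sham hearts, which overlap. An exact two-sided permutation test gave p = 0.1 for each of the first 2 shares and p = 0.7 for the third (0.15, 0.15 and 0.7 after Benjamini-Hochberg adjustment over the 3), and 0.1 is the smallest p that 3 against 3 hearts allow. The shares were looked at after the transcript values had been seen, and shares of 1 gene depend on each other. How often transcript shares of other genes separate the groups was not analysed here, so nothing is read from this separation. The transcripts share exons, so how the counting divided reads among them is not known. The number of reads was 821 over the I/R hearts and 1580 over the Sham hearts for the longest transcript, and 3026 and 2685 for that of 4924 bases.

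**Figure D3:**
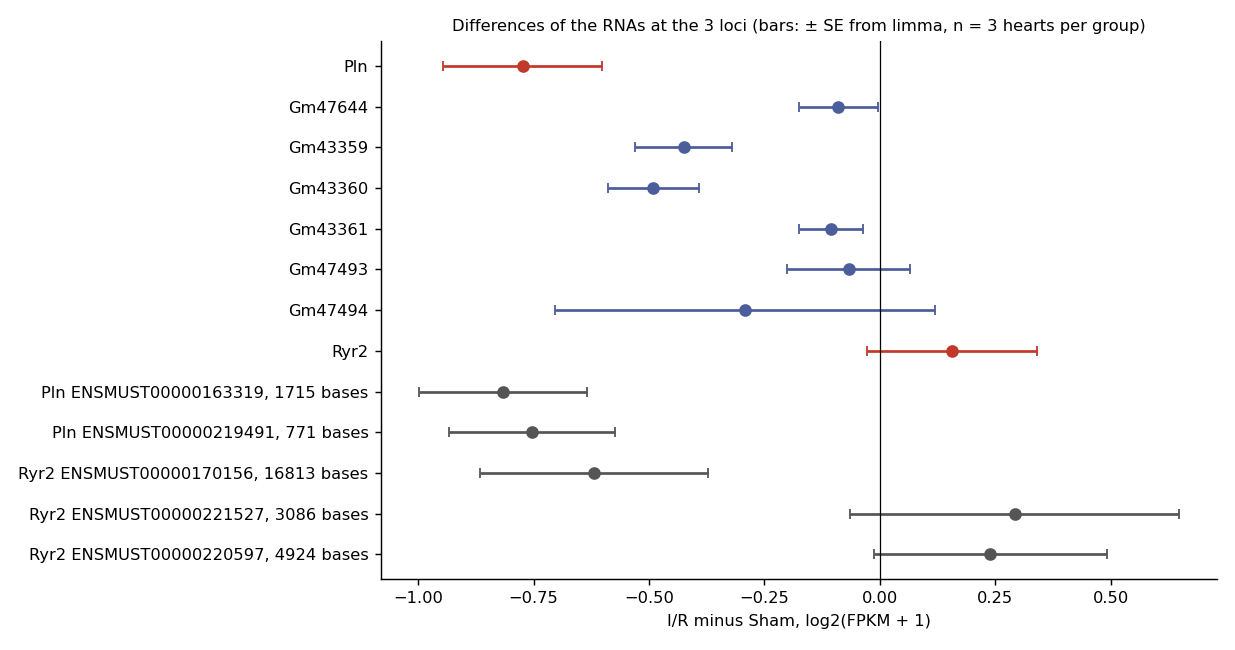
I/R minus Sham differences (x axis, log2(FPKM + 1), bars ± SE, n = 3 hearts per group) of the 8 RNAs and of the 5 transcripts of Pln and Ryr2. Both Pln transcripts lie near −0.8, whereas the 16813-base Ryr2 transcript lies at −0.62 and the shorter ones at 0.24 and 0.29.

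**Figure D4:**
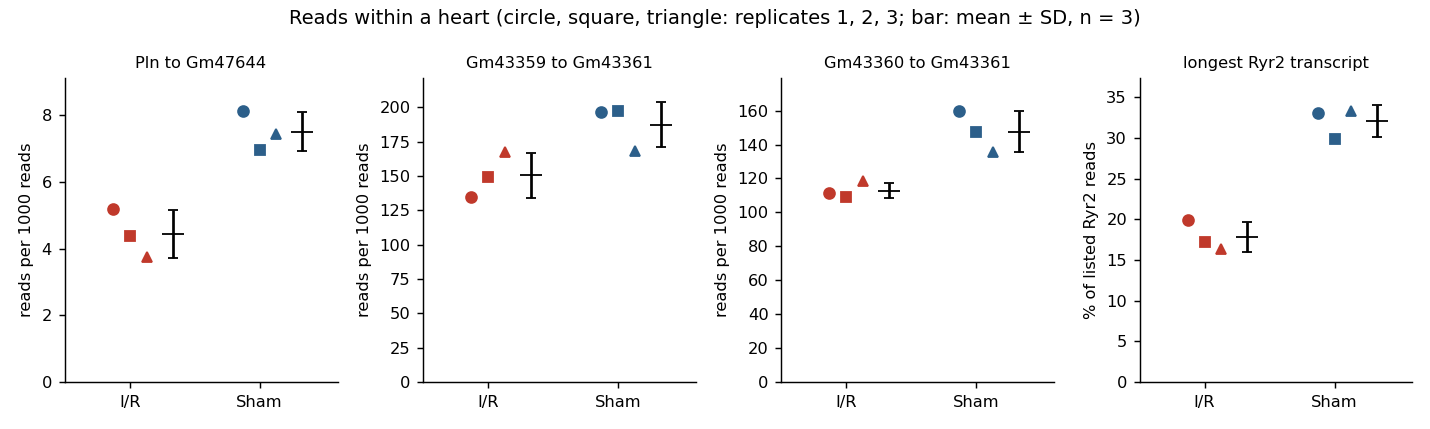
Reads within a heart: Pln per 1000 Gm47644 reads, Gm43359 and Gm43360 per 1000 Gm43361 reads, and the longest Ryr2 transcript as a percentage of listed Ryr2 reads (y axes from 0, I/R in red left of Sham in blue, bars mean ± SD, n = 3). In each panel every I/R heart lies below every Sham heart, by the least for Gm43359 (167 against 169). Other ratios are not drawn, and those of Gm43360 to Gm43359 and of Gm47494 to Gm47493 (−0.23 ± 0.67 in log2 ratio) overlapped. Pln, Gm43359 and Gm43360 were picked on their values, and the Ryr2 share was looked at after its values were seen. Nothing is therefore read from the panels separating alike.

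The other genes near these loci differed in both directions. Of 15 other genes or lncRNAs within 100 kb of Pln, Atp2a2 or Ryr2, 13 passed the filter, 7 higher and 6 lower in I/R hearts, and 0 had an adjusted p under 0.05 (limma, smallest adjusted p = 0.502), while 1, Gm47322, had an unadjusted p under 0.05. Over all genes tested these shares were 0% and 8.44%, so the counts say nothing particular about the neighbours. Cep85l, a centrosomal protein gene that contains Pln on its opposite strand, was at 24.6, 24.6 and 24.8 FPKM in I/R replicates 1, 2 and 3, against 22.3, 24.4 and 20.01 in Sham replicates 1, 2 and 3. Its I/R hearts all lay above the Sham hearts, by 0.15 ± 0.13 (limma, adjusted p = 0.81). Of the 3 lncRNAs tested beside Pln, Gm47641 and Gm19395 differed by 0.31 ± 0.18 and 0.16 ± 0.11, and Gm36173 had the sign of Pln, with −0.39 ± 0.32 and groups that overlapped. At Ryr2, Gm47322 was at 13.8 ± 0.815 FPKM in I/R hearts and 19.0 ± 2.54 in Sham hearts and had every I/R heart below every Sham heart (−0.43 ± 0.15; limma, adjusted p = 0.502). Gm47487 was at 36.9, 12.5 and 4.59 FPKM in I/R replicates 1, 2 and 3 and at 8.83 to 14.5 FPKM in Sham hearts. I/R replicate 1 was thus the highest heart for Gm47494, Gm47487 and Ryr2 mRNA.

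Other genes of calcium handling were listed by role, 75 genes in 4 lists without Pln, Atp2a2 and Ryr2. Of these, 49 were in the table and 36 passed the filter, with 23 higher and 13 lower in I/R hearts and a median difference of 0.03 (0.02 over all protein-coding genes tested). Over all protein-coding genes tested, 2765 of 5041 were higher. None of the 36 had an adjusted p under 0.05 in limma or in limma voom on the recovered reads, as for 0% of all 12114 genes tested. At an unadjusted p under 0.05 limma gave 1 higher and 1 lower of the 36, and voom 3 in all, where 5.10% of protein-coding genes and 8.44% of all genes tested passed in limma. The share in the lists lay near that of all protein-coding genes.

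Among regulators of the pump, 11 genes were tested, 7 higher and 4 lower, with a median of 0.03. The catalytic subunit gene of protein kinase A, Prkaca, was at 91.2 ± 10.5 FPKM in I/R hearts and 95.2 ± 3.28 in Sham hearts (−0.07 ± 0.11), and its regulatory subunit genes Prkar2a and Prkar1a differed by 0.05 ± 0.10 and 0.32 ± 0.20. Camk2d, which encodes the main CaMKII of heart, was at 4.50 ± 0.412 FPKM in I/R hearts and 3.29 ± 0.507 in Sham hearts (0.37 ± 0.19; limma, adjusted p = 0.651, the smallest of this list). Ppp1ca and Ppp1cb, catalytic subunits of the phosphatase that removes phosphate from phospholamban, differed by −0.03 ± 0.07 and 0.05 ± 0.09. Tmem38a and Tmem38b, potassium channels of the reticulum, differed by −0.06 ± 0.08 and −0.15 ± 0.14. The differences of the named genes of this list lay between −0.15 and 0.37.

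Of 8 genes of the release complex, 7 were higher and 1 lower, with a median of 0.11. Of the 14 genes of this list in the table, 6 were below 1 FPKM in every heart, among them Casq2, Hrc and Jph2. The median therefore says nothing about these genes. Speg, a kinase of the junction between reticulum and cell membrane, was at 4.37 ± 0.67 FPKM in I/R hearts and 2.75 ± 1.09 in Sham hearts (0.55 ± 0.25; limma, adjusted p = 0.613, the smallest of this list). Pde4d, a phosphodiesterase that breaks down cyclic AMP, differed by 0.32 ± 0.21. Asph, whose locus encodes junctin, differed by 0.24 ± 0.22, and the calmodulin gene Calm3 by −0.01 ± 0.14.

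Of 10 genes of calcium entry and extrusion at the cell membrane, 7 were higher and 3 lower, with a median of 0.10. Of the 13 genes of this list in the table, 4 were below 1 FPKM in every heart, among them Slc8a1. Fxyd1 encodes phospholemman, a small membrane protein that protein kinase A phosphorylates. It was at 9.85, 7.92 and 7.21 FPKM in I/R replicates 1, 2 and 3, against 6.13, 5.82 and 5.28 FPKM in Sham replicates 1, 2 and 3, with no overlap (0.46 ± 0.18; limma, adjusted p = 0.559). Cacna1c, the L-type calcium channel, was uneven between hearts, at 1.51 to 8.12 FPKM in I/R and 1.32 to 3.16 in Sham (0.64 ± 0.49). Caveolin 3 (Cav3), a membrane protein of muscle, differed by 0.17 ± 0.14.

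Of 7 genes of mitochondrial calcium, 2 were higher and 5 lower, with a median of −0.04. Smdt1 encodes EMRE, a subunit of the mitochondrial calcium uniporter. It was at 4.42, 3.44 and 3.04 FPKM in I/R replicates 1, 2 and 3, against 7.90, 5.64 and 5.17 FPKM in Sham replicates 1, 2 and 3, with no overlap (−0.64 ± 0.22; limma, adjusted p = 0.513). Letm1, an ion exchanger of the inner membrane, was at 14.2 ± 0.634 FPKM in I/R hearts and 16.7 ± 0.818 in Sham hearts (−0.22 ± 0.13), and Slc8b1, the sodium-calcium exchanger of mitochondria, differed by 0.32 ± 0.34. The outer membrane channel Vdac1 and Mcur1 differed by −0.03 ± 0.08 and −0.04 ± 0.10.

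**Figure D5:**
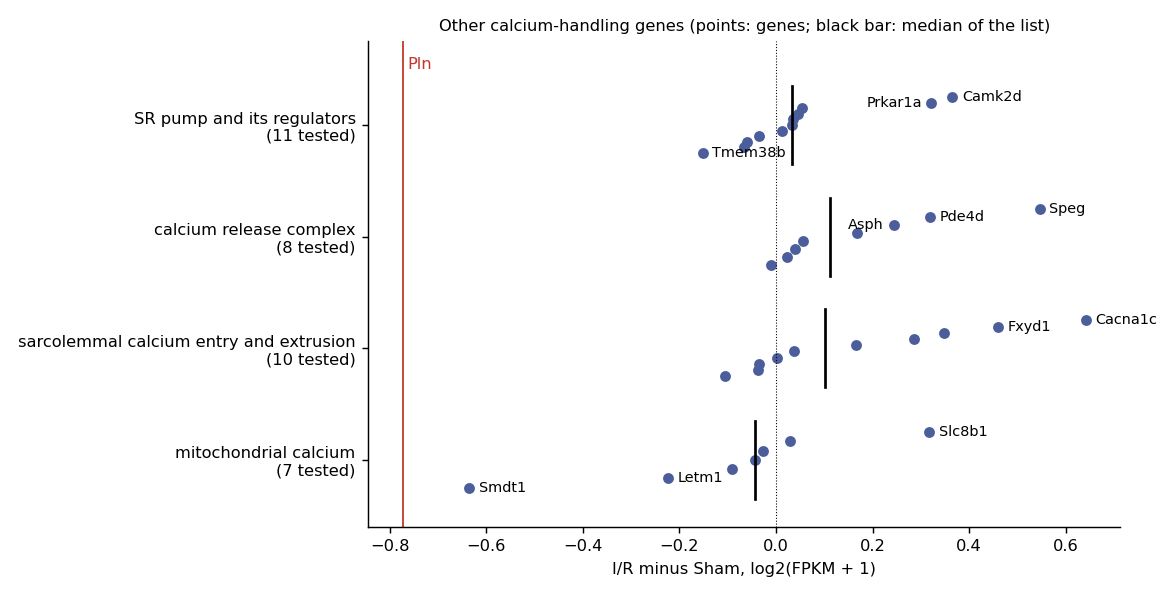
I/R minus Sham differences (x axis, log2(FPKM + 1)) of the 36 other calcium-handling genes tested, by list, with the median of each list as a black bar and Pln as a red line. The medians lie between −0.04 and 0.11, and every point lies to the right of Pln at −0.77. Pln was picked with this difference in view, so nothing is read from its place beside the lists.

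The tissue makeup of the hearts bears on Pln, because in bulk RNA fewer cells of a type and less RNA per cell cannot be told apart. Of 15 ventricular cardiomyocyte markers tested, 11 were lower and 4 higher in I/R hearts, with a median of −0.13 and 0 past the adjustment. Their summed level was 12138 to 12691 FPKM in I/R hearts and 12036 to 13057 in Sham hearts, ranges that overlap. Most of this sum came from Fabp3, a fatty acid binding protein gene (9535 ± 444 FPKM in I/R hearts and 9421 ± 393 in Sham hearts), and Hspb7, a small heat shock protein gene (1964 ± 128 and 2137 ± 172 FPKM in I/R and Sham hearts), so it says little about the other 13. The troponin T gene Tnnt2 differed by −0.47 ± 0.13 and titin (Ttn) by −0.05 ± 0.11. The myosin genes Myl3, Myl2 and Myh6 differed by −0.41 ± 0.28, −0.33 ± 0.15 and −0.33 ± 0.16. Tnni3, at a low level, differed by −0.59 ± 0.31. The 4 higher markers, Tnnc1, Ckm, Cox6a2 and Fabp3, differed by 0.20, 0.11, 0.05 and 0.02. Fibroblast markers were higher for 8 of 9 tested (median 0.23; summed level 492 to 537 FPKM in I/R hearts and 376 to 463 in Sham hearts). Macrophage markers were higher for 6 of 6 (median 0.22; 1145 to 1239 FPKM in I/R hearts and 922 to 1104 in Sham hearts). Immediate-early genes, a fast transcriptional response of many cell types, were higher for 10 of 10 (median 0.59). Over all 5041 protein-coding genes tested, 2765 were higher and 2276 lower. In limma 0 genes of these lists passed the adjustment, as for 0% of all genes. At an unadjusted p under 0.05 limma gave 2 fibroblast, 1 macrophage and 5 immediate-early genes, all higher. It gave 1 ventricular and 1 endothelial marker, both lower, beside 5.10% of all protein-coding genes. The medians were −0.04 for 5 endothelial, −0.12 for 4 smooth muscle and pericyte, −0.40 for 2 erythroid and 0.03 for 5 atrial markers. The part of these differences in that of Pln was not tested.

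Of 5 atrial markers tested, Myl7 and Sln differed widely from heart to heart in both groups. Myl7, the atrial myosin light chain, was at 0.22, 326 and 10.4 FPKM in I/R replicates 1, 2 and 3, against 0.342, 43.2 and 115 FPKM in Sham replicates 1, 2 and 3. Sln, which encodes sarcolipin, the atrial relative of phospholamban, was listed at 0, 43.2 and 0.679 FPKM in the same I/R hearts, against 0, 4.25 and 12.2 FPKM in the Sham hearts. The other 3 followed them only in part. Sbk2, a kinase gene, was at 4.19, 4.67 and 4.91 FPKM in I/R replicates 1, 2 and 3, against 3.48, 4.41 and 4.27 FPKM in Sham replicates 1, 2 and 3. It varied little but was lowest in replicate 1 of each group, as Myl7 and Sln were. Nppa, the gene of atrial natriuretic peptide, was also lowest in replicate 1 of each group. In the same order it was at 465, 583 and 811 FPKM in I/R hearts, against 329, 672 and 468 in Sham hearts. In I/R it was highest in replicate 3, not in replicate 2 as Myl7 was. Myl4, another atrial light chain, was at 1.07, 0.751 and 0.436 FPKM in I/R hearts, against 1.025, 2.13 and 1.34 in Sham hearts. Its lowest heart was replicate 1 in Sham but replicate 3 in I/R. The amount of atrial tissue in a heart was therefore not read from these markers. The 2 hearts with Myl7 under 1 FPKM were the highest of their groups for Pln, at 84.3 FPKM in I/R and 131 in Sham. Without the heart highest in Myl7 of each group, I/R replicate 2 and Sham replicate 3, the difference of Pln was −0.68 and that of the Pln to Gm47644 read ratio −0.77. Those of Gm43359 and Gm43360 were −0.48 and −0.51.

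The genes most like Pln over the 6 hearts were found by Pearson's r on log2(FPKM + 1), as a description. At a mean of 5 FPKM or more, those closest of 2117 protein-coding genes were Zfp87 (r = 0.975), Tacc2 (0.963), Mgll (0.949), Pold4 (0.945) and Ndufb5 (0.943). Among 4499 lncRNAs they were Gm37955 (r = 0.993), AA465934 (0.989), A130014A01Rik (0.984), Arhgap27os3 (0.984) and 2310039L15Rik (0.983). Each had a lower mean in I/R hearts, for example Gm37955 with 30.6 FPKM in I/R hearts and 63.2 in Sham hearts. Being picked for likeness to Pln brings this about, so nothing is read from it. The lncRNAs most like Gm47644 were Gm43185 (r = 0.982), 9430081H08Rik (0.976), Gm10785 (0.976), Gm38118 (0.972) and Gm36670 (0.966), and none of them is among those most like Pln. With 6 hearts in 2 groups and a search over all these genes, r is a description only.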

How the data were processed

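Poly(A) RNA of 3 I/R and 3 Sham hearts was sequenced from NEBNext Ultra II libraries, per the labels' protocols. HISAT2 2.1.0, HTSeq 0.10.0, fastp 0.23.0 and bcl2fastq 2.19.1.403 appear in the submitters' processing notes, as do several mouse builds, with no role for each. The sources used here do not name the annotation or the strand setting. The authors deposited FPKM per transcript for each of the 6 hearts. Of 21198 rows 40 repeated another and were dropped. FPKM of transcripts of a protein-coding gene were summed (8969 genes), and 9413 lncRNAs have 1 row each.

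Since each FPKM is a whole number of reads scaled by length and library total, the reads could be recovered, separately for mRNA and lncRNA. All 11745 mRNA rows and all 9413 lncRNA rows gave whole reads (within 0.001). Tested on simulated lncRNA data, every count was exact for 2749 of 2873 rows. The listed mRNA transcripts held 36.8% to 39.9% of their total, so the part of a gene's reads seen here is not known. Reads carry no molecular identifiers.

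A filter kept 12114 genes averaging 0.5 FPKM or more and left out 6268. Their log2(FPKM + 1) values were fitted by group in limma 3.58.1 (R 4.3.3), with a variance trend, two-sided p-values adjusted over all genes by Benjamini and Hochberg, and a threshold of 0.05. Transcript rows were fitted in the same way. The fit was tested on simulated data. Figures and tables used Python 3.11.15, numpy 2.4.6, pandas 2.3.3 and matplotlib 3.10.9. Start regions are from RefSeq (GRCm38.p6), which held both Pln and Ryr2. Of each calcium list, the 3 genes with the smallest p and those averaging 20 FPKM or more are named, except some that are not reported here. Neighbours are those within 100 kb. The 5 genes with the highest r are given for likeness. Named marker genes and Sln were chosen after their values were seen. The members, the lists and the tests were chosen with earlier results of these data known.

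Alternatives were other pseudocounts, filters, scalings and transcript choices, each class alone, limma voom on the recovered reads, a replicate block and each heart left out. Leaving out the heart of each group highest in Myl7 was chosen after seeing the data.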

Additional observations from a re-analysis of the deposited data

How the results depend on the processing

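Of 328 alternative values, 298 counted as the same, 25 as moved and 5 as reversed in sign. Reversal was counted only for differences given with a p, and the 5 were of Ryr2 mRNA and of its shorter transcripts. Among values given without a p, a change of sign counted as the same or as moved. Such changes include Gm47493 at 0.045 without I/R replicate 1 and Gm47494 at 0.10 without I/R replicate 3. The pump median was −0.018 without I/R replicate 2, against 0.034 in the main fit. A difference or median given without a p counted as moved when it shifted by more than the spread between hearts, also where its sign stayed. The difference of Pln ranged from −0.93 to −0.68 over all alternatives, that of Gm43359 from −0.50 to −0.36, that of Gm43360 from −0.55 to −0.40 that of Gm47644 from −0.14 to 0.00, that of Gm47493 from −0.18 to 0.045, that of Gm47494 from −0.69 to 0.10 and that of the longest Ryr2 transcript from −0.90 to −0.29. That of Gm43361 was −0.038 with medians centred within each class. Ryr2 mRNA was at −0.056 in limma voom, and with 1 heart left out it ranged from −0.0054 to 0.33, the 4924-base transcript from −0.0074 to 0.44 and the 3086-base transcript from −0.037 to 0.64 (−0.20 without the 2 hearts highest in Myl7). None of these alternatives over all genes gave a gene an adjusted p under 0.05. At an unadjusted p under 0.05, limma gave 1023 genes, voom 1019, a filter at 5 FPKM 640 and the hearts without those highest in Myl7 674. Of the calcium genes these were 2, against 1 with the filter at 5 FPKM, 4 with no filter, 4 with the most abundant transcript, 0 without the hearts highest in Myl7 and 0 to 3 with 1 heart left out. The median of the release complex was 0.022 with the filter at 5 FPKM, 0.03 with no filter, 0.048 with a pseudocount of 5, 0.22 with voom and 0.18 with the most abundant transcript. That of genes of the cell membrane was 0.18 with a pseudocount of 0.1. With 1 heart left out the medians ranged from −0.018 to 0.047 for the pump, 0.052 to 0.20 for release, 0.021 to 0.33 for the cell membrane and −0.076 to −0.00080 for mitochondria. The cause of these shifts was not tested.

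Whether replicate numbers pair the hearts was not settled. Same-numbered hearts deviated together with r of 0.153, 0.028 and 0.029. I/R replicates 1 and 2 correlated best with the Sham heart of the same number, whereas I/R replicate 3 correlated best with Sham replicate 2 (0.111). With a replicate block in limma 0 genes had an adjusted p under 0.05 and 1125 an unadjusted p under 0.05 (1023 without the block). Pln stayed at −0.77. A quasi-likelihood count test on the recovered reads was planned and not run, and limma voom was the count-based alternative used. At 416 to 1089 reads per Pln transcript over the I/R hearts and 3 hearts per group, small differences cannot be seen.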
